A study of Caenorhabditis elegans with 2 samples.

Results

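Binding of GRH-1 was examined at the genes of the secretory pathway and of membrane traffic. They were chosen by name, as the protein-coding genes of the Ensembl annotation whose symbol starts with sec-, rab-, arl-, arf-, trap- or vps-, together with sar-1 and the genes of the COPI coat. There were 91 such genes among 19973 protein-coding genes. GRH-1, the Grainyhead family transcription factor of Caenorhabditis elegans, was located on the genome by ChIP-seq, the sequencing of DNA that is immunoprecipitated with a protein. Whole larvae of strain RW12208 were used, which carry the allele st12208, a CRISPR insertion of TY1, EGFP and 3xFLAG at grh-1. Both replicates were L1 larvae aged 6 h, starved after bleaching. The labels' description names an anti-GFP antibody for the precipitation, and their antibody field gives grh-1. The samples held all cell types of the larva together, there was 1 group and so no contrast between groups, and no control library was analysed here. A peak is a region where the authors' processing found more fragments than around it, and its summit is the base of highest signal. The pooled list that passed the authors' reproducibility threshold, an IDR of at most 0.01, held 2470 summits, and the lists of replicate 1 and replicate 2 held 1787 and 1487.

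Proteins bound for the cell surface, the cuticle or lysosomes enter the endoplasmic reticulum through the Sec61 channel. They leave it in vesicles with a COPII coat, and vesicles with a COPI coat carry material back from the Golgi. Small GTPases of the Rab and Arf families mark each compartment, tethering complexes such as the exocyst and HOPS bring membranes together, and ESCRT complexes sort membrane proteins into lysosomes. Epidermal cells of a larva secrete the cuticle through this pathway, and Grainyhead proteins are known for their roles in such epithelia.

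Of the 91 genes, 26 (28.6%, 20.3 to 38.6) had a pooled summit in the promoter window, which took in 1000 bp before and 200 bp after each 5′ end. Of all protein-coding genes 8.16% had one. The number of distinct summits was also 26, since sec-61.B and trap-3 shared a summit and arf-6 had a pair. Signal values of the 26 summits ran from 17.9 to 1099, with a median of 203, while the median of the 1311 other promoter summits was 141. The middle of the distributions overlapped widely, with quartiles of 139 and 333 at these genes and of 96.3 and 249 at the others. The 3 genes of the Sec61 channel all had a summit, as did 6 of the 11 ESCRT genes. When a summit was given only to the gene with the closest 5′ end, sec-61.B lost its summit and 4 ESCRT genes kept one. The 3 retromer genes had none, but with so few genes the interval reached 56.1%.

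The sequences under the summits are shown because no member summit held the palindrome that Grainyhead proteins are known to bind. Each covers the summit and 50 bp to either side, read 5′ to 3′ on the strand of the gene, from the RefSeq assembly WBcel235, which has the coordinates of ce11. Capitals mark GAGAGA, AGACGCAG and the CREB-type sites TGACGT and TGACGTCA on either strand, and also GGTCTC and CACGTG where present. The members whose summits held the 8-mer AGACGCAG, shown for its share of 12.4% at other promoter summits and 2.47% upstream of all genes, were sec-61.G (WBGene00001303), sec-24.1 (WBGene00004755), vps-60 (WBGene00018290) and vps-37 (WBGene00016990).
sec-61.G (chrV:10897326-10897426, reverse strand): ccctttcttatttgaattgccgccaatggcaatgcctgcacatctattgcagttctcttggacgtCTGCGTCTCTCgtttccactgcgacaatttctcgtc
sec-24.1 (chrIV:11566317-11566417, reverse strand): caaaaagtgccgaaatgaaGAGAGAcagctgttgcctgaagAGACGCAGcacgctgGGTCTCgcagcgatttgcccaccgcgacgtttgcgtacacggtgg
vps-60 (chrV:8606420-8606520, reverse strand): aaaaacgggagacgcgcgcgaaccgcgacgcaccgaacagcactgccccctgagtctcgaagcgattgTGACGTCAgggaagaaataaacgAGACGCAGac
vps-37 (chrV:5592458-5592558, forward strand): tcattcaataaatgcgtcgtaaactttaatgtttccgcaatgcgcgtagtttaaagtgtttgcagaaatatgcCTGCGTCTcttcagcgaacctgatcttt

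The 8-mer lay 18.5 bp from the summit at sec-61.G, where its reverse complement overlaps that of GAGAGA, and 5.5 bp from the summit at sec-24.1. At vps-60 and vps-37 it lay 44.5 and 26.5 bp away. At vps-60 the full palindrome TGACGTCA, the site of CREB and ATF factors, was present as well, 21.5 bp from the summit, against 1.60% of other promoter summits and 1.26% of windows upstream of all genes. Summits with high values but without AGACGCAG were those of sec-61.B and trap-3 (WBGene00021427 and WBGene00021420), vps-39 (WBGene00011625) and vps-32.1 (WBGene00016961), of which the first is read on the strand of sec-61.B.
sec-61.B and trap-3 (chrIV:2389095-2389195, reverse strand): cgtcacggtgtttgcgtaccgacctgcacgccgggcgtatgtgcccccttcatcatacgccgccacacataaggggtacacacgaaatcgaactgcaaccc
vps-39 (chrV:14038841-14038941, reverse strand): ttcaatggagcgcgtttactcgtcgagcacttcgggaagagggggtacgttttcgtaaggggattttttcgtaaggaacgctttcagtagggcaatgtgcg
vps-32.1 (chrII:6589012-6589112, forward strand): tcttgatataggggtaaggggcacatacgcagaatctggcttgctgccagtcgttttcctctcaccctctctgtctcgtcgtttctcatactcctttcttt

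No member summit held a Grainyhead-type site within 100 bp. The sites searched were AACCGGTT, AACTGGTT and ACCGGT on both strands, where every AACCGGTT also holds ACCGGT. The count of 0 of 26 summits allows a share of up to 11.5% by the limit of 3 counts, and the upper end of the 95% Wilson interval was 12.9%. For comparison, the share was 9.38% (123 of 1311) at other promoter summits and 2.45% in windows of the same length centred 200 bp upstream of all protein-coding genes. A lower share than at other promoter summits was therefore not detectable with 26 summits. Among the members without a summit, 5 of 65 such upstream windows (7.69%) held one. GAGAGA was present at 7 summits (26.9%, 13.7 to 46.1), against 32.6% of other promoter summits and 14.2% of the upstream windows. AGACGCAG was present at 4 summits (15.4%, 6.15 to 33.5), against 12.4% and 2.47%. Both shares had intervals that held the value at other promoter summits.

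Letters known from the control of secretory genes in other settings were searched too. The CREB-type letters TGACGT, which lie within TGACGTCA and TGACGTGG, occurred at vps-4, sar-1, vps-60 and copz-1. That is 4 of 26 summits (15.4%), against 9.84% of other promoter summits and 7.01% of the upstream windows. TGACGTGG, an XBP-1-type element of the unfolded protein response, occurred at copz-1 alone, against 0.839% of other promoter summits and 0.446% of upstream windows. CCACG, a part of the ER stress element that can overlap TGACGTGG on the other strand, was at 6 summits (23.1%) and at 25.1% of other promoter summits, and at 14.2% of the upstream windows. CACGTG, the E-box, was at rab-7 alone (3.85%), against 9.61% and 3.33%. Of the 26 summits 10 held none of the 10 motifs searched. These matches are descriptions of letters, and binding by any other factor was not measured.

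Among the role groups of the members, the genes for entry into the endoplasmic reticulum had the largest share, with 6 of 8. Of all protein-coding genes 8.16% had a summit. The group has too few genes for a narrow interval (75%, 40.9 to 92.9), and sec-61.B and trap-3 shared a summit. Outside the name rule, 4 of 14 other genes of the signal recognition particle and of this entry had one. The highest summit of all members was that of sec-61.G, the gamma subunit of the Sec61 channel, with a signal value of 1099 in the pool, 629.6 in replicate 1 and 470.5 in replicate 2. It ranked 29 among the 2470 pooled summits. In the ranked lists, which hold all peaks, it ranked 30 in the pool, 27 in replicate 1 and 32 in replicate 2. The gene lies on the reverse strand of chromosome V between bases 10896658 and 10897143, and the intergenic summit, at base 10897376, was 233 bp upstream of its 5′ end and within the window of the divergent gene F32D8.13.

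The channel's beta subunit gene sec-61.B and trap-3, a gene of the translocon-associated protein (TRAP) complex, lie head to head on chromosome IV and shared a summit at base 2389145. Its values were 507 in the pool, 258 in replicate 1 and 249 in replicate 2. The summit was 470 bp upstream of sec-61.B and 300 bp upstream of trap-3, in an exon of the non-coding gene Y38F2AR.17. The pore-forming alpha subunit gene sec-61.A had values of 279, 162 and 109, at a summit 126 bp downstream of its 5′ end, in its 5′ UTR. That summit was also in the window of rps-18, a ribosomal protein gene.

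Further TRAP genes, trap-2 and trap-1, had summits of lower value. At trap-2 the values were 207 in the pool, 127 in replicate 1 and 78.4 in replicate 2, and the summit was shared with ile-2, which encodes a lectin-like cargo receptor. At trap-1 the pooled value was 97.2, with 71.1 in replicate 1 and 15.7 in replicate 2, where the peak ranked 41949 and did not pass. The ratio of the value in replicate 1 to that in replicate 2 was thus 4.54 at trap-1, the highest among the member summits. Each list has its own scale, and the median ratio at member summits was 1.38. The remaining genes of the group were trap-4 and sec-11, the catalytic subunit of signal peptidase, and their highest peaks in the pooled ranked list had values of 59.2 and 63.5.

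Of the 8 COPII genes that the name rule took in, 3 had a summit, against 8.16% of all genes. That of sec-24.1, whose protein binds cargo, had values of 338, 199 and 128 in the pool, replicate 1 and replicate 2, 173 bp upstream of the 5′ end. The GTPase gene sar-1, which starts assembly of the coat, had values of 253, 149 and 107, and its summit 371 bp upstream lay in no other gene's window. At sec-16A.1, a scaffold of the exit sites, the pooled value was 77.0, with 22.7 and 44.2 in the replicates, neither of which passed. Its summit lay in an intron of the gene, 170 bp upstream of an internal 5′ end. The paralogues sec-24.2 and sec-16A.2 had no summit, and their highest ranked peaks in the pool were 11.1 and 49.9. In replicate 1 the highest ranked peak at sec-16A.2, 23.5, was no lower than the 22.7 at sec-16A.1, and in replicate 2 it was 27 against 44.2. For sec-23, sec-31 and sec-12 it was 27, 20.6 and 45.4. Among the 7 COPI genes, 1 had a summit, near what the share over all genes would give. This was copz-1, the zeta subunit, with 151 in the pool, 73.0 in replicate 1 and 77.8 in replicate 2. It was shared with the cyclophilin gene cyn-4, whose 5′ end was nearer.

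**Figure D1:**
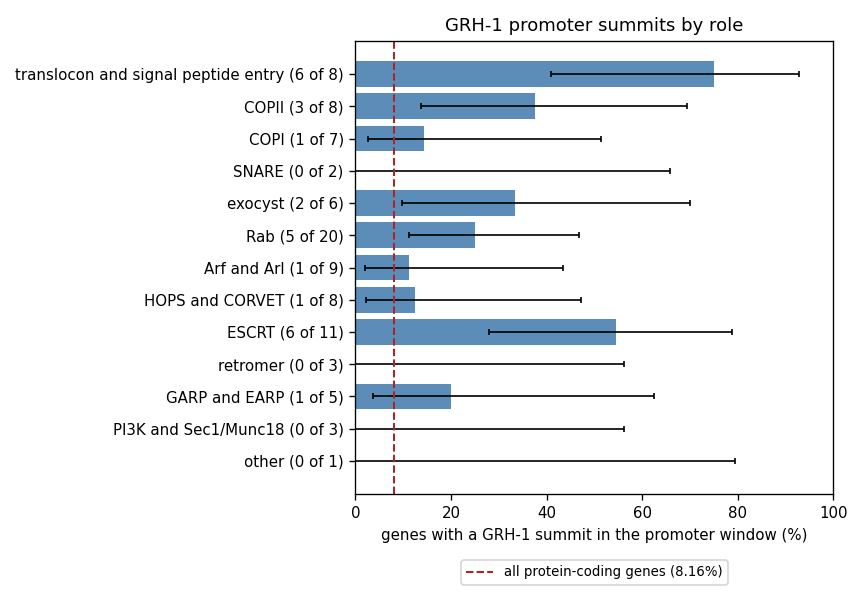
Share of genes with a pooled GRH-1 summit in the promoter window (x axis, %) for each role group (y axis, with the number of genes). Bars give the share, lines the 95% Wilson interval and the dashed line the share over all protein-coding genes, 8.16%. The translocon group (6 of 8) and ESCRT (6 of 11) have the longest bars, and their intervals lie above the dashed line. So do those of COPII (3 of 8), the exocyst (2 of 6) and the Rabs (5 of 20). The position of an interval is no test here, since the groups were chosen with earlier results of these data known. The intervals also count genes as independent, while sec-61.B and trap-3 of the translocon group share a summit.

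The ESCRT genes held summits in several of their subcomplexes. The filament gene vps-32.1 had 608 in the pool, 322 in replicate 1 and 271 in replicate 2, at a summit 646 bp upstream that was also in the window of icd-1, whose protein binds nascent polypeptides and whose 5′ end was nearer. The gene of the ATPase that takes the filaments apart, vps-4, had 418, 251 and 163, in intergenic sequence 267 bp upstream and in no other window. The related filament gene vps-60 had 222, 112 and 109. The ratio of the value in replicate 1 to that in replicate 2 was 1.03 to 1.54 at these summits. Each list has its own scale, and the median ratio at other promoter summits was 1.27.

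The ESCRT-II genes vps-22 and vps-25 had pooled values of 318 and 168. In replicate 1 and replicate 2 they were 181 and 139 at vps-22, and 107 and 65.4 at vps-25. The summit of vps-22 was 638 bp upstream and also in the window of C27F2.9, whose 5′ end was nearer. The summit of vps-25 lay in an intron of the gene, 36 bp upstream of an internal 5′ end. The ESCRT-I gene vps-37 had 142, 97.3 and 55.5 and passed in replicate 1 only. The 5 ESCRT genes without a summit were vps-2, vps-20, vps-24, vps-28 and vps-36. The highest ranked value among them was that of vps-2, 67.6, and the lowest that of vps-24, 11.7.

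Of the tethering complexes, HOPS and CORVET had a summit at 1 of 8 genes, the exocyst at 2 of 6 and GARP and EARP at 1 of 5, against 8.16% of all genes. The HOPS gene vps-39 had the second highest value of the members, 667 in the pool, 388 in replicate 1 and 277 in replicate 2, at an intergenic summit 513 bp upstream and in no other gene's window. The other 7 genes of HOPS and CORVET had none. Of the 6 exocyst genes, sec-15 had 387, 224 and 162 and sec-3 had 199, 111 and 87.4. The summit of sec-15 lay within 200 bp of a tRNA gene and was nearer to C28G1.2, while that of sec-3 lay in no other window. Of the 5 genes of GARP and EARP, which tether at the trans-Golgi and at recycling endosomes, vps-51 had 121 in the pool and 59.1 and 59.3 in the replicates, at a summit shared with lin-35, the retinoblastoma gene.

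Among the 20 Rab genes 5 had a summit (25%, 11.2 to 46.9, against 8.16% of all genes). The value at rab-18 was above the median of the member summits, 203, and the other 4 were below it. They were rab-18 (255 in the pool), rab-7 of late endosomes (172), rab-11.1 of recycling endosomes (155), rab-14 (138) and rab-5 of early endosomes (132). In replicate 1 and replicate 2 the values were 155 and 96.1 at rab-18, 72.7 and 92.3 at rab-7, 85.5 and 66.3 at rab-11.1, 60.4 and 69.9 at rab-14, and 82.8 and 56.9 at rab-5. Only rab-18 and rab-7 passed in both replicates. All 5 summits lay in windows of other genes too: par-2 and kbp-4 at rab-18, mex-1 and W03C9.5 at rab-7, the ribosomal protein gene rpl-7 at rab-11.1, nipi-3 at rab-14 and nmat-2 at rab-5. The summit of rab-18 was 2 bp upstream of its 5′ end, and those of rab-7 and rab-5 were the farthest of all members, at 762 and 752 bp. The paralogue rab-11.2 had a highest ranked peak of 12.6. Of the 9 Arf and Arl genes, arf-6, which acts at the plasma membrane and in recycling, had summits of 97.2 and 17.9. The former had 62.3 in replicate 1 and 36.9 in replicate 2, where it did not pass, and the latter matched no peak in either replicate.

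**Figure D2:**
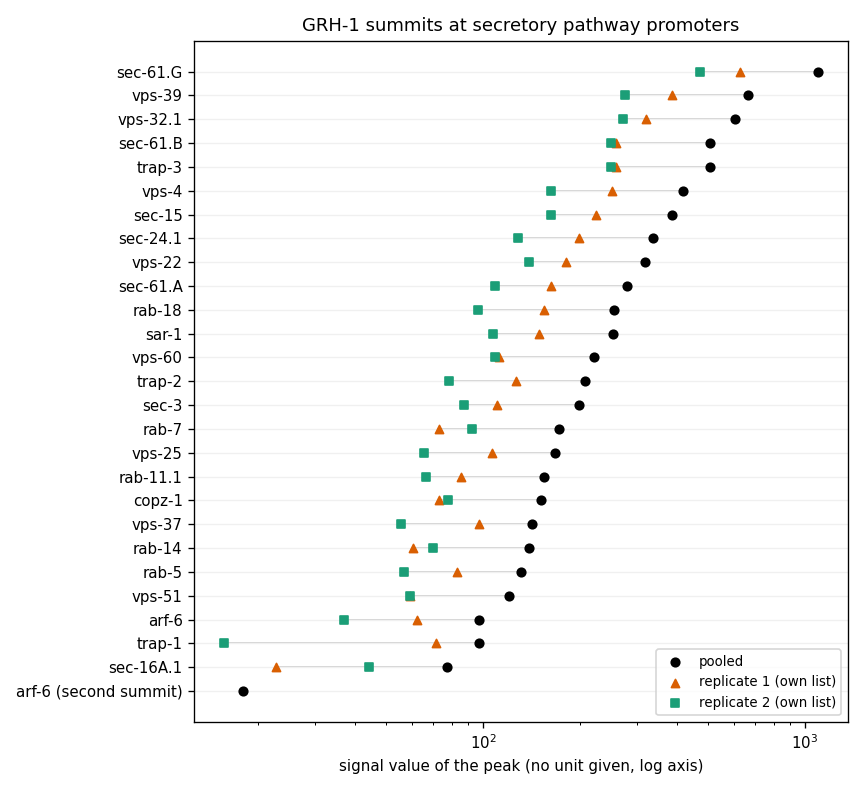
Signal value (x axis, log scale, no unit given) of each summit in the window of a secretory pathway or membrane traffic gene (y axis), in the pooled list (circles) and of the matching summit in the ranked lists of replicate 1 (triangles) and replicate 2 (squares). Values of different lists are on their own scales. Circles run from 1099 at sec-61.G to 17.9 at the second summit of arf-6, and triangles lie right of squares at 20 of the 25 distinct summits with both values, sec-61.B and trap-3 being drawn separately for their shared summit.

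The replicates ordered the member summits alike. Over the 25 summits with a value in both, the Spearman correlation was 0.912, a description across summits that share the same libraries. These summits came from a list kept by a reproducibility threshold, which can favour such agreement by itself. Values in the list of replicate 1 were higher at 20 of the 25, with a median ratio of 1.38 (range 0.513 to 4.54). The median ratio at 1250 other promoter summits was 1.27, and each list has its own scale. In the list of replicate 1 alone 24 members had a summit (26.4%, against 6.64% of all genes), and in that of replicate 2 alone 20 did (22%, against 5.53%). Both lists held 19 of them (20.9%, against 4.94%). The members in the list of replicate 1 and not of replicate 2 were rab-11.1, vps-37, rab-5, arf-6 and trap-1. In replicate 2 and not in replicate 1 there was rab-14, and sec-16A.1 was in neither.

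The summits lay mostly upstream and near the genes. Of the 27 pairs of gene and summit 25 were upstream of the 5′ end, 17 were within 300 bp of it and 5 were beyond 600 bp. Measured to the nearest 5′ end whose window held the summit, the median distance was 201 bp, against 197 bp at other promoter summits. Many were shared between genes: 16 of the 26 summits (61.5%) lay in windows of several genes, against 28.3% of the other promoter summits. A summit in several windows has more ways to fall in a member's window. The choice of summits by member thus raises this share by itself, and the values cannot tell how much of the difference it makes. When a summit was given to a single gene, that with the closest 5′ end, 18 members (19.8%, 12.9 to 29.1) had one, against 6.15% of all genes. The 8 members that lost their summit were copz-1, rab-11.1, rab-7, sec-15, sec-61.B, vps-22, vps-32.1 and vps-51. Neither the difference in sharing nor which of the genes GRH-1 acts on was tested.

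**Figure D3:**
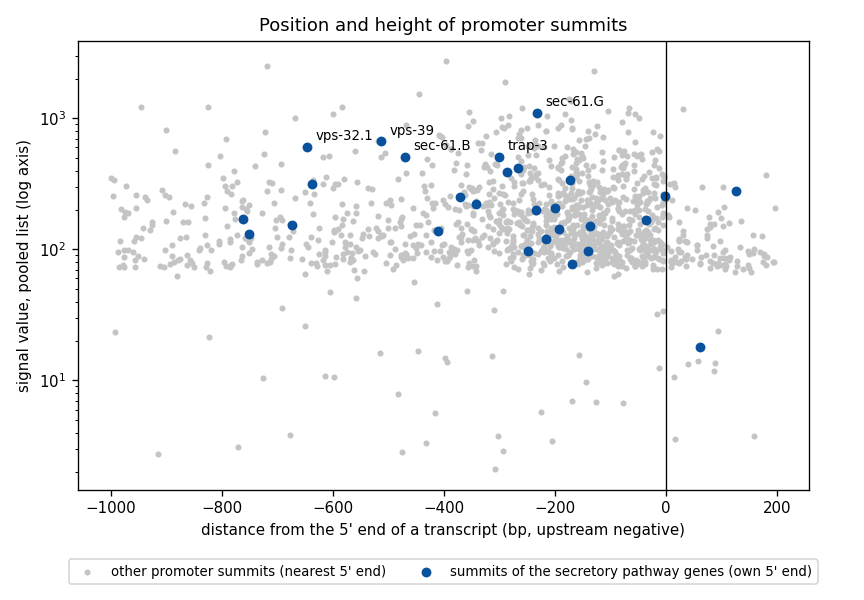
Distance from a 5′ end (x axis, bp, upstream negative) and pooled signal value (y axis, log scale) of promoter summits. Blue points are the 27 pairs of member gene and summit, and grey points the 1311 other promoter summits at their nearest 5′ end. Blue points lie among the grey ones, 25 of them left of 0.

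The members with a summit were also described by the neighbouring gene. A divergent neighbour within 2000 bp upstream was present at 38 of the 91 members (41.8%) and at 25% of all genes. Of these 38 members 17 (44.7%) had a summit, against 15.2% of all genes with such a neighbour. A neighbour on the same strand within 500 bp upstream, the arrangement of downstream genes in many worm operons, was present at 27 members (29.7%) and at 17.7% of all genes. Of these 27 members 2 (7.41%) had a summit, namely sec-3 and trap-1, against 5.77% of all genes so placed. Among genes with neither arrangement and no overlap upstream, 5 of 19 members (26.3%) had a summit, against 5.61% of all such genes. The number of distinct 5′ ends, which sets the width searched, was alike, with a mean of 1.46 at members and 1.47 over all genes. Operon membership itself was not analysed here, and no test was made of these shares.

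Among the 65 members without a summit, 50 had a weaker peak in the window in the pooled ranked list, which holds 117774 peaks. Counting all ranked peaks, 76 of 91 members (83.5%) had one, against 81.2% of all genes, so the ranked list does not set the members apart. For the 50 genes the highest value had a median of 31.1, against 32.5 at other genes without a thresholded summit. The 5 highest were rab-8 (68.5), copa-1 (67.7), vps-2 (67.6), sec-11 (63.5) and vps-11 (62.8), of which vps-11 belongs to HOPS and copa-1 encodes the alpha subunit of COPI. Just inside the threshold stood sec-16A.1 with a value of 77.0 and a −log10 IDR of 2.13. Just outside stood vps-2 with a −log10 IDR of 1.81, where 2 is needed. At the edge of the window, sec-6 of the exocyst had a summit of 174 that lay 151 bp beyond its upstream end, and no other member had a summit within 500 bp of its window. No peak of the ranked list lay in the windows of 15 members, among them the retromer genes vps-26 and vps-29, and the lipid kinase gene vps-34.

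**Figure D4:**
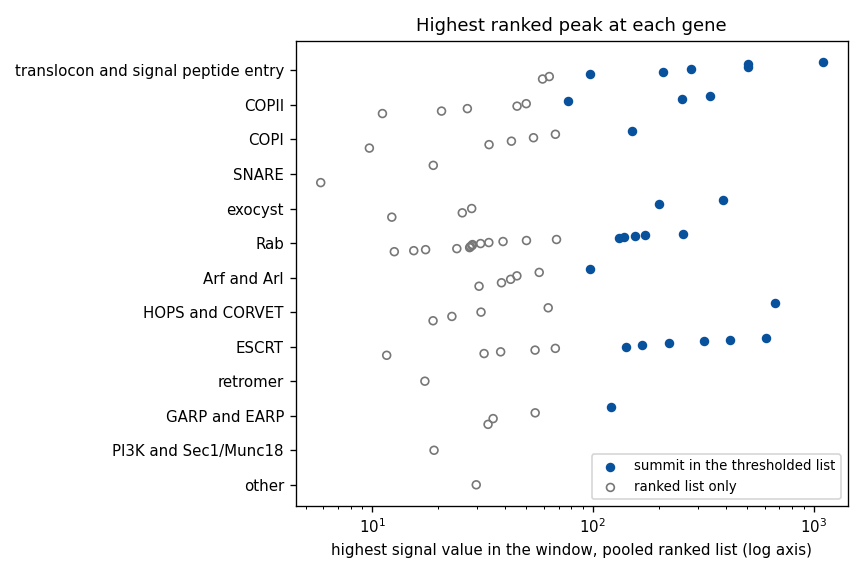
Highest signal value in the promoter window in the pooled ranked list (x axis, log scale) for the 76 member genes with a ranked peak, by role group (y axis). Filled points have a summit in the thresholded list and open points do not. Open points end at 68.5 (rab-8), and filled points begin at 77.0 (sec-16A.1).

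Other genes of the pathway were taken from a list of 200 symbols, of which 165 were in the annotation. Of these, 29 (17.6%, 12.5 to 24.1) had a promoter summit, against 8.16% of all genes and 28.6% of the members. With nearest 5′ ends only, 21 (12.7%) had one, against 6.15% of all genes. Of 14 genes of the signal recognition particle and of entry into the endoplasmic reticulum 4 had one, among them imp-2 (437), an intramembrane protease, and spcs-2 (247), a subunit of signal peptidase. Of 5 genes of N-glycosylation dad-1 (529) had one. At imp-2 and dad-1 the 5′ end of another gene was nearer to the summit. Among 39 genes of clathrin coats, adaptors and endosomal sorting 9 did, with epsin, epn-1 (544), the AP-2 subunit dpy-23 (393), apb-1 (332) and the sorting nexin snx-1 (301) highest.

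The following counts stand beside a share of 8.16% over all genes, and no group was tested against it. Of 32 genes of membrane fusion 4 had a summit, among them the Golgi syntaxin syx-5 (478) and its partner sly-1 (219). Of 33 genes for regulators of the small GTPases 6 did, led by rme-4 (376), ccz-1 (361) and tbc-7 (278). At syx-5 and ccz-1 the 5′ end of another gene was nearer to the summit. Of 24 genes of Golgi tethers 3 did, with cogc-2 (244) highest. Of 18 genes of cargo adaptors and exit from the endoplasmic reticulum 2 did, with ile-2 (207) at the summit of trap-2. The highest of these 165 genes, epn-1, ranked 167 in the pooled list, below sec-61.G, vps-39 and vps-32.1.

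Member genes with a summit were found on every chromosome. They were 6 of 18 on I, 3 of 18 on II, 3 of 19 on III, 6 of 17 on IV, 4 of 8 on V and 4 of 11 on X. The share of all genes with a summit was between 6.49% (V) and 10.8% (III).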

How the data were processed

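GRH-1 binding was measured in 1 group of 2 biological replicates. Per the labels, the deposited peak lists are on the build ce11 and were made with the irreproducible discovery rate (IDR). Aligner and peak caller: not given in the sources used here. Peaks carry a deposited signal value, a score on a scale of its own list, which was used to describe and order peaks. The summit came from the deposited offset within the peak, and the deposited −log10 IDR from the ranked lists. The number of reads is unknown, and intervals are 95% Wilson intervals that cover counting error only.

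Genes came from Ensembl release 115 and sequence from the RefSeq assembly WBcel235. Its chromosome lengths were at least as large as every peak end. Promoter windows took in 1000 bp before and 200 bp after the 5′ end of each protein-coding transcript. A replicate's value for a pooled summit was its highest ranked summit within 150 bp. Motifs were searched on both strands of the summit and 100 bp to either side. The steps ran in Python 3.11.15 with SciPy 1.17.1, matplotlib 3.10.9, pandas 2.3.3 and numpy 2.4.6. Assignment and motif search were tested on simulated data. No test was run on the gene list: the members, role groups, pathway list and motifs were chosen with earlier results of these data known. Every member with a summit is named. Members without one are named where a summit lay within 500 bp of the window, or among the 5 highest in the ranked list. Of the other pathway genes the 15 highest are named, except 1 that is not reported here. Other names were chosen after their values were seen. As alternatives, counts were repeated with the conservative list, each replicate's list, the higher-scoring part of the list, merged regions, other windows, nearest 5′ ends and other motif widths.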

Additional observations from a re-analysis of the deposited data

How the results depend on the processing

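The count of 26 members with a promoter summit was 24 with the conservative pooled list, 20 to 24 in the replicates' own lists, 22 with the higher-scoring part of the pooled list (1235 peaks), 26 with 1 summit per merged region, 19 with a window of 500 bp upstream and 100 bp downstream, 30 with one of 2000 bp upstream, and 18 with nearest 5′ ends only. The members' share stayed above that of all genes in each of these. The 10 members with a summit under all of them were rab-18, sar-1, sec-24.1, sec-3, sec-61.G, trap-2, trap-3, vps-25, vps-4 and vps-60. The conservative list, with 2389 peaks, left out sec-16A.1 and trap-1. The window of 2000 bp added copb-1, rab-19, sec-11 and sec-6. With the higher-scoring part of the list, all genes with a summit fell to 1007 and other pathway genes to 19, as fewer peaks were counted. The median signal value of the members' summits, 203, was 253 in that part of the list and 178 with the window of 2000 bp. In the replicates' own lists, which have their own scale, it was 109 to 127. No summit of a member held a Grainyhead-type site under any of these settings, nor with 50 or 200 bp to either side. No paired analysis was possible because there was 1 group. The unknown number of reads, the lack of a control library here and 26 summits limit what can be told apart.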

Other observations

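A further run of letters, GGTCTC, was noticed when the sequences were read and was searched afterwards on both strands. It was present at 9 of the 26 member summits (34.6%, 19.4 to 53.8), at 13.5% of other promoter summits, at 5.94% of the windows upstream of all genes and at 4 of 65 windows upstream of members without a summit. The letters were chosen on these summits, so the difference was not tested. Those with the site nearest to the summit were rab-18, rab-11.1, sec-24.1, copz-1 and rab-14, at 0.500 to 13.5 bp. Capitals mark the site, and CACGTG at rab-7, in the summit and 50 bp to either side, on the strand of the gene (WBcel235).
copz-1 (chrII:10872692-10872792, forward strand): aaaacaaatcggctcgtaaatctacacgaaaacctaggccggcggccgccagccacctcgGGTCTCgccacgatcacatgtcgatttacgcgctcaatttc
rab-7 (chrII:11967643-11967743, reverse strand): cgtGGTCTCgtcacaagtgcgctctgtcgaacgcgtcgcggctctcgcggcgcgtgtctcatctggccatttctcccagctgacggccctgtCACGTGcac
rab-14 (chrX:15606995-15607095, reverse strand): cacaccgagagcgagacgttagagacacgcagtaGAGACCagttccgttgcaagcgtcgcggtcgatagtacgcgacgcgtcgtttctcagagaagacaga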
